A study of Mus musculus with 312 samples.

Results

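The cells described here are the adult mammary basal cells whose titles carry the mark (2), restricted to those with at least 50000 read pairs and 1000 genes with a read after mitochondrial genes and genes of the Rpl and Rps families were left out. Of the 112 cells with this mark, 81 (72.3%) met both minimums, out of 312 cells in the whole series. The cells came from the mammary glands of adult FVB/NJ mice, and their source is labelled as basal. According to the study's methods, basal cells were sorted as Lin- CD29hi CD24+, captured singly on a Fluidigm C1 chip, where the cDNA of each cell was made in a chamber of its own. The labels name an Illumina NextSeq machine for sequencing. The labels name no animals and do not explain the mark, so the 81 cells count as 1 sample, and no test or standard error was computed from cells. Fewer transcripts in a cell and less efficient capture of its RNA cannot be told apart in these counts.

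Basal cells form the outer layer of the mammary ducts and lobules, next to the basement membrane. They are epithelial cells with a smooth muscle programme: they carry the keratins of stratified epithelia, and they contract in response to oxytocin to expel milk. Their contractile machinery comprises smooth muscle actin and myosin, the regulatory light chains and the actin-binding proteins that stabilise the filaments.

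The 81 cells had from 59012 to 397385 reads assigned to the genes used, with a median of 174910, and from 1261 to 5309 genes with at least 1 read, with a median of 3020. The share of mitochondrial reads ranged from 1.5% to 52.7%, with a median of 9.65%. The cells just inside the minimum had 59012, 65774 and 65992 reads, and those just outside had 47943, 47463 and 41715. In total, 15503 of 25136 genes had a read in at least 1 of the 81 cells. Levels are given as CPM, the reads of a gene scaled to a common total of assigned reads in every cell, and, where genes are set against each other, as CPM per kilobase of exon. For single genes and gene lists, detection meant at least 100 CPM in that cell.

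The label was first examined with 11 core basal genes, of which at least 6 were detected in 76 of 81 cells (93.8%, exact 95% interval 86.2 to 98.0%, for counting error only). The median cell had 10 of them. Of the 6 markers Krt5, Krt14, Krt17, Acta2, Myh11 and Trp63, all were detected in 13 cells, 5 were detected in 47 cells, and 15 cells had 4. The gene most often below the detection level was Trp63, the master transcription factor of stratified epithelia, which reached 100 CPM in 15 cells and had a read in 50.

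The 5 cells with fewer than 6 core basal genes were cells 7, 19, 95, 100 and 104. Cell 19 carried 8 of 8 immune genes, which took 5.22% of its reads, and had 38233 CPM of Cd74, the invariant chain of MHC class II, against at most 918 CPM in any other cell. It had 195 CPM of Acta2, 449.6 CPM of Krt14, and no read of Krt5. Cell 104 carried 3 of 8 pericyte genes with 5 core basal genes. These cells were retained because the rule retains them, and values that change without them are given beside the results. Cell 102 carried 5 of 8 pericyte genes together with 8 core basal genes.

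Markers of other mammary cell types were sparse. At least 3 of the 7 pan-luminal genes were detected in 5 cells, which had from 9 to 11 core basal genes. Krt8 and Krt18, the paired keratins of simple epithelia, reached 100 CPM in 30 and 26 cells, whereas Cldn3 and Cldn7, tight junction proteins of luminal cells, did so in 1 cell each. The 7 pan-luminal genes took from 0 to 0.328% of the reads of a cell, with a median of 0.021%. No cell reached 3 genes of the luminal progenitor, mature luminal, milk protein, endothelial, fibroblast, Schwann cell or adipocyte lists, and 0 of 81 cells allows a share of up to 3.70%. Foxa1, Aldh1a3, Lalba, Tie1, Lum and Adipoq had no read in any of the 81 cells, but other members of these lists had reads. Without a read were 1 of 8 luminal progenitor, 1 of 10 mature luminal and 2 of 7 milk protein genes. The same held for 1 of 8 endothelial, 2 of 8 fibroblast, 3 of 8 Schwann cell and 3 of 6 adipocyte genes. Cd14, Lcn2, Tbx3, Dcn, Sox10 and Fabp4 of these lists were abundant enough on average to be measured for variation below. At least 3 of 14 proliferation genes were detected in 2 cells, cell 36 with 8 and cell 105 with 6. No doublet caller was run, and the part of doublets in cells with markers of several types was not tested.

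The next question was which transcripts dominated the basal cells. Per kilobase, the highest mean belonged to Mt1, a metallothionein that binds zinc and copper. Its levels ran from 84.5 to 104707 CPM per kb, with a median of 29159 and a mean of 32233 ± 19217.5 (SD over cells, n = 81). It was followed by Slpi, a secreted protease inhibitor, with a mean of 9758 ± 11649 CPM per kb. Slpi ranged from 0 to 62127 CPM per kb with a median of 6314, so that its SD exceeded its mean, in contrast to that of Mt1. Mt2, the second metallothionein, had a mean of 5300.1 CPM per kb and a median of 5008.

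Several smooth muscle genes were also among the most abundant, with Acta2 at rank 3 per kilobase, Tagln at rank 7 and Myl9 at rank 16. Acta2, the smooth muscle actin, ranged from 8.63 to 25601.5 CPM per kb, with a median of 6266 and a mean of 7674. Tagln, an actin-crosslinking protein of smooth muscle, ranged from 30.1 to 18719 CPM per kb, with a median of 4639.6 and a mean of 5886. Both genes had reads in every one of the 81 cells and reached 100 CPM in 80. Myl9, the regulatory light chain of smooth muscle myosin, was lower, with a mean of 1887 CPM per kb. The heavy chain gene Myh11 had a mean of 411 CPM per kb and was detected in 78 cells, so the parts of 1 filament system differed widely in level per length.

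Of the basal keratins, Krt14 had a mean of 3073 CPM per kb (range 7.40 to 15218, median 2595) and Krt17 a mean of 3038 (range 0 to 11740.1, median 2449). Krt5, the type II keratin that pairs with Krt14 in filaments, was lower per length, with a mean of 297 CPM per kb, a range of 0 to 1996 and a median of 142. It was detected in 60 cells, against 78 for Krt14 and 75 for Krt17.

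**Figure D1:**
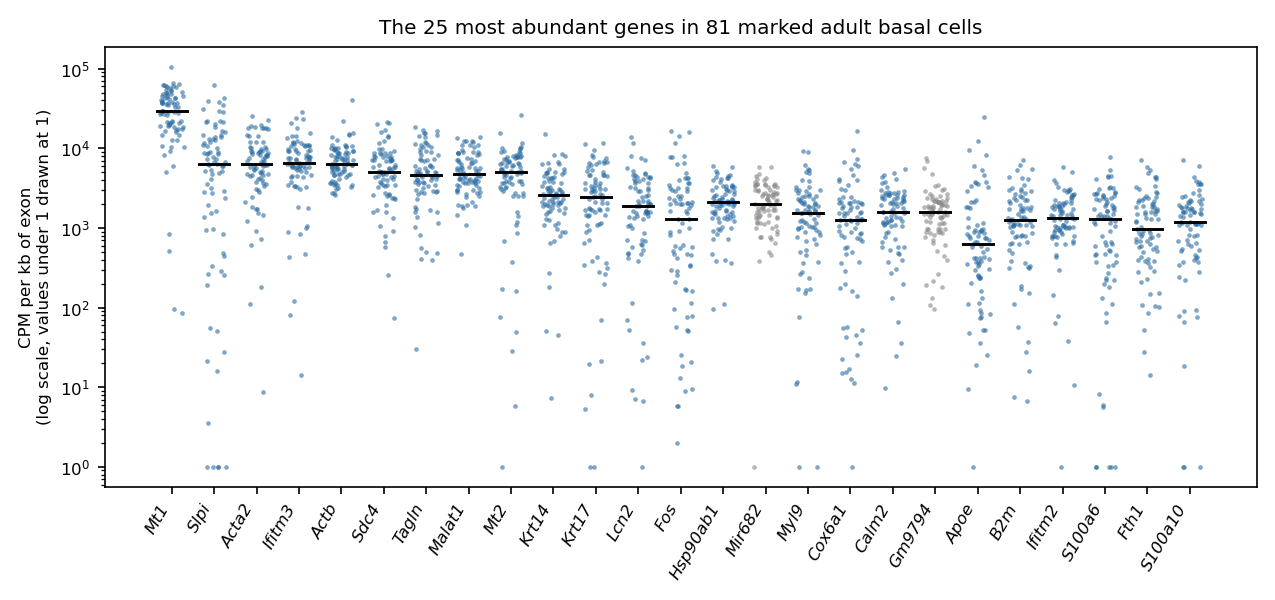
CPM per kilobase of exon (vertical axis, log scale) of the 25 genes with the highest mean over the 81 cells; each point is 1 cell and each bar is the median. Grey marks Mir682, whose sequence matched Rpl37a, and Gm9794, a pseudogene for which no match was sought. Mt1 stands above the other genes, Actb runs from 2599 to 39903 CPM per kb, and the highest cells of Slpi, Fos and Apoe reach 62127, 16441 and 24702 CPM per kb. Values under 1 are drawn at 1.

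The other abundant genes had various roles. Ifitm3 and Ifitm2, membrane proteins that restrict virus entry, had means of 7671 and 1555 CPM per kb, and Actb, the cytoplasmic actin, 7582. Sdc4, a heparan sulfate proteoglycan that acts with integrins at focal adhesions, had 6088 CPM per kb and the third highest CPM. Malat1, a nuclear long noncoding RNA, had the highest CPM of any gene, with a mean of 39301, and 5629 CPM per kb. Lcn2, an iron-sequestering protein that also stands in the luminal progenitor list, had 2451 CPM per kb and reads in 80 cells, while Kit and Elf5 of the same list had reads in 2 cells and 1 cell. Fos, an immediate early transcription factor, had a mean of 2398 CPM per kb, a median of 1282 and a highest cell of 16441. Apoe, the apolipoprotein, had a mean of 1661 and a median of 627, and cell 97 held 18.4% of its summed level. The highest cells of Apoe were 97, 99, 103 and 102, with 24702, 12172, 9443 and 8187 CPM per kb. Their title numbers lie close together, but cells 95, 96, 100 and 104 had 232, 9.57, 0 and 19.1 CPM per kb. Cell 105 had 3600 CPM per kb. The part of title numbers in the spread of Apoe was not tested. Cox6a1, B2m, S100a6, S100a10, Fth1, Calm2 and Hsp90ab1 had means between 1482 and 2278 CPM per kb.

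Together, the 25 genes took 16.2% ± 3.19 (SD over cells, n = 81) of the reads of a cell, from 5.35% to 24.4%. The list depended on the division by exon length. Ranked by CPM without length, 13 of these genes were among the 25 highest, and the 25 took 18.6% of the reads. Lmna, Canx and Igfbp5 were among the genes that entered. Per kilobase and without the 5 cells of few core basal genes, 24 of the 25 genes were again among the 25 highest. The means of Slpi and Acta2 were then 10383 and 8139 CPM per kb. The mean of each of the 25 genes moved by less than 1 SD over cells. Leaving out 5 of 81 cells cannot move a mean that far, so this shows nothing about stability.

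Variation over cells was examined next. Each cell was thinned to 50000 reads, and the CV of each gene (its SD over cells divided by its mean) was compared with the running median of the CV over the 201 genes nearest in mean. The 3604 genes above a thinned mean of 50 CPM were split into 2675 genes of 50 to 200 CPM, 832 genes of 200 to 1000 CPM and 97 genes over 1000 CPM. The median CV was 2.87, 1.74 and 0.969 in these bands. In the highest band the running median stayed at 1.09, since its window spans more genes than the band holds, so the order there follows the CV itself. In the lowest band the median gene had reads in 27 thinned cells, and a single cell held over 25% of the reads of 1157 genes.

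The genes of lowest CV for their mean included many copies of other genes. Of the 24 genes named by the rule, 8 in each band, 14 were numbered gene models, pseudogenes or noncoding genes. One of them, Mir682, a locus of 96 bases on chromosome 13, had a mean of 2229 CPM per kb. Its sequence matched a transcript of Rpl37a, a ribosomal protein gene, with 1 mismatch in 96 bases (99.0% identity), so these reads cannot be assigned to the miRNA. Gm2225, Gm5781, Gm2830, Gm8942 and Gm9385 matched Rps25, Rps15, Rps24, Rps24 and Rpl24, ribosomal protein genes whose own counts were left out, at 95.0 to 99.8% identity. Gm9512 matched Eef1a1, and Gm10080 and Gm8894 matched Myl6.

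Gm10080 (chromosome 9, 44374598 to 44375210, GRCm38) is an example of a copy close to its parent gene in sequence. It matched Myl6, the essential light chain of myosin (chromosome 10, 128490859 to 128493886), with 4 mismatches over 438 aligned bases. The stretch of 75 bases that holds 3 of these mismatches, where the genes are most readily told apart, from the coding sequence of Myl6 is shown with the aligned stretch of the copy, in GENCODE transcripts of GRCm38. Capitals mark the 3 bases that differ, which are G5A, A72G and G75A, with positions counted from 1 at the 5′ end of the stretch and the base of Myl6 given first.
Myl6: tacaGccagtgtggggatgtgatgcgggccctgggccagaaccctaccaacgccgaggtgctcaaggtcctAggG
Gm10080: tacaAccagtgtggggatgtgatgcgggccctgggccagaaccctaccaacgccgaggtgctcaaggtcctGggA

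Since such copies may share reads with their parent genes, which was not tested, the uniform genes were named once more among protein-coding genes with a name of their own, a restriction added after the data were seen. In the highest band the lowest CVs were those of Eef1a1, the elongation factor that brings tRNA to the ribosome (CV 0.519), Set, a histone chaperone (0.554), Ywhaz, a 14-3-3 adaptor (0.574), and Hsp90ab1, a constitutive chaperone (0.581). Eef1a1 had 126 CPM in the lowest cell, 2346 in the median cell and 6371 in the highest. Mt1 (CV 0.595), Dstn, an actin-severing protein (0.636), Actb (0.650) and Tpm2, a tropomyosin of contractile filaments (0.665), followed. Actb ran from 4909.8 to 75377 CPM with a median of 11991, and no cell lacked its reads. Its place among the uniform genes depended on the setting. Of 10 alternative settings over all genes, 4 named Actb again, and its residual ran from the 0.0277th to the 41.8th percentile.

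Other genes were named at lower means. Between 200 and 1000 CPM they were Hspa8, the constitutive Hsp70 (CV 0.624 against a running median of 1.69), Cox6c of cytochrome oxidase, Myl6, Ftl1 of ferritin, the translation factor Eif4a1, Ubb, Pcnp and Dnaja1, a partner of Hsp70. Between 50 and 200 CPM they were Ptma (0.655 against 2.16), Oaz1, which controls polyamine levels, Tmsb10, Tomm6, Naca, Ndufa12, Btf3 and Atp5h. Hspa8 had 53.7 CPM in the lowest cell, 351 in the median cell and 1227 in the highest. Several of these genes have near-identical copies, so their means may miss reads that fit more than 1 place.

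The same measure was taken in the 58 retained adult basal cells without the mark, which took no part in the choice. Of the 24 protein-coding uniform genes, 21 lay in the lowest 10% of residuals there, a range that by construction holds 10% of the 2701 genes measured in both sets. The 3 outside it were in the band over 1000 CPM, where 5 of 8 lay inside, and Tpm2 stood at the 23.8th percentile of all genes with a running median in those cells. The genes with the lowest CV of the rule itself gave 22 of 24.

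**Figure D2:**
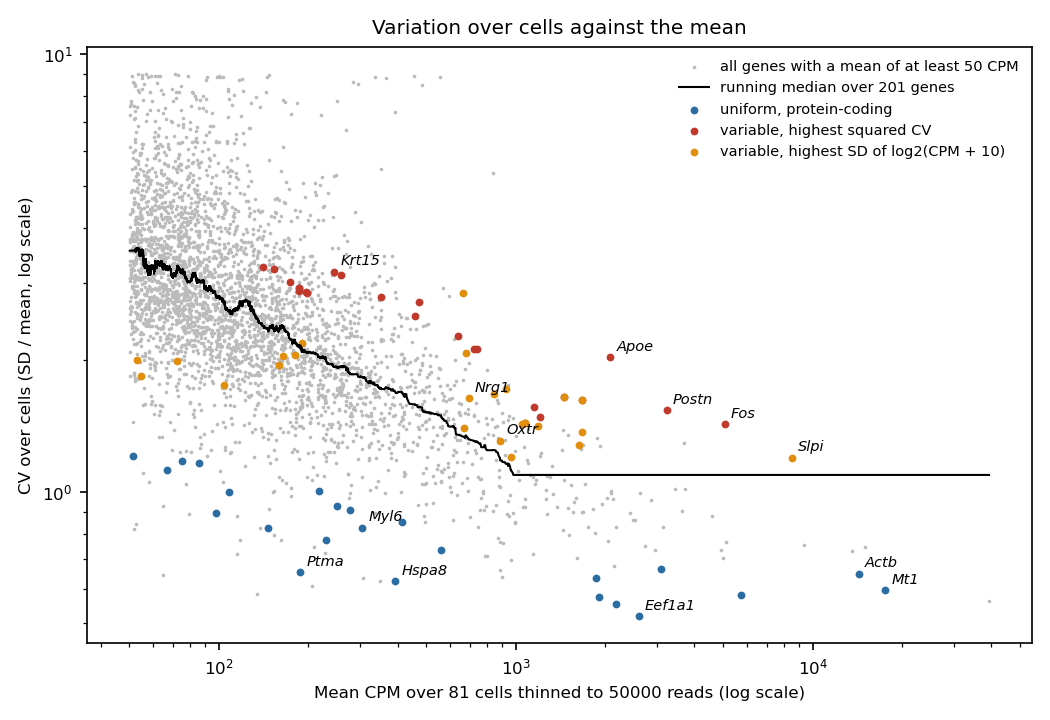
CV over the 81 thinned cells against the mean (both on log scales), for the 3604 genes above 50 CPM; the line is the running median. Blue points are the 24 uniform protein-coding genes, red points the 24 genes of highest squared CV and orange points the 24 protein-coding genes of highest SD on the log2 scale; Ptma, Hspa8 and Eef1a1 lie far below the line, Apoe, Postn and Fos above it.

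Variable genes depended on how variation was measured. By the squared CV, after genes with over 25% of their reads in 1 cell were passed over, the highest genes over 1000 CPM were Apoe (CV 2.03), Sptbn1, a spectrin (1.65), Adamts1, a secreted metalloprotease (1.62), Sgk1, a glucocorticoid-induced kinase (1.56), Postn, a matricellular protein (1.53), Crispld2 (1.48), Clk1, a splicing kinase (1.44), and Fos (1.42). Postn had 0 CPM in the lowest cell, 1920.1 in the median cell and 30275 in the highest. Between 200 and 1000 CPM the list comprised Jmy, Klhl9, Krt15, Mapre1, Foxn3, Nktr, Krcc1 and Cst3, and between 50 and 200 CPM it comprised Eya2, Synpo2, Pip4p2, Fam168a, C3, Rbms2, Sertad4 and Eps8l2. Krt15, a basal keratin that can replace Krt14, had a read in 31 cells and reached 5334 CPM in cell 28, which held 23.8% of its thinned reads. With TMM scaling and no thinning, 5 of these 24 genes were named again, against 18 without thinning alone, and without the highest cell of each gene, 8 were. The choice by band and the limit of 25% left 4 of these 24 genes in the highest 10% of residuals in the marked cells themselves. Their percentiles ran from 77.2 for Fos to 93.6 for Apoe. Of these 24 genes, 22 could be measured in the unmarked cells, and 4 of them lay in the highest 10% of residuals there, against 10% of all genes.

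The limit of 25% mattered most in the lower bands, where 586 and 60 genes of larger residual were passed over. The 3 with the largest residual were H2-Aa, Ccl4 and Cd74, immune genes of which cell 19 held from 94.6% to 99.1% of the thinned reads. Members named just below the limit are thus also genes that few cells carry at high levels.

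By the SD of log2(CPM + 10), a measure less moved by a single high cell, other genes led. Over 1000 CPM the first was Slpi, with an SD of 3.34 against a running median of 2.41, followed by Adamts1 (3.27), Tm4sf1, a tetraspanin-like membrane protein (3.06), Nufip2 (3.02), Thbs1, the matricellular thrombospondin (2.99), Tubb6, a tubulin (2.93), Clk1 (2.92) and Sptbn1 (2.89). Slpi had no read in 5 cells and was detected in 70. Its lower quartile was 859 CPM, its median 5531 and its highest cell 54424. The cells of Slpi thus covered the range from no read to a dominant transcript. The level was not spread evenly over title numbers. In the retained cells numbered 95 to 105, Slpi ran from 0 to 941 CPM per kb, below its lower quartile of 981. Cells 53 and 88 also had no read. The labels do not explain the order of the numbers, and its part in the spread of Slpi was not tested.

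Between 200 and 1000 CPM, the genes of highest SD were Septin11 (3.42 against 2.42), Sp1, Poldip3, Oxtr, Zfp655, Nrg1, Plec and Ecrg4. Oxtr, the oxytocin receptor, had no read in 15 of 81 cells, was detected in 50, and had a median of 470 CPM and a highest cell of 5261. Nrg1, a ligand of ERBB receptors, was detected in 44 cells, with a median of 169 CPM and a highest cell of 5905. Septin11, a cytoskeletal GTPase, was detected in 39 cells, with a median of 73.9 CPM and a highest cell of 9248. These genes were thus at or near 0 in a part of the cells and abundant in others, while Plec, the plakin that links keratins to hemidesmosomes, was detected in 47.

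In the unmarked cells, 10 of the 23 measured genes of highest SD lay in the highest 10%, against 10% of the 2701 genes, 5 of 8 in each of the 2 upper bands and 0 of 7 in the lowest. Slpi, Oxtr, Ecrg4, Poldip3, Clk1 and Tubb6 stood at or above the 99th percentile there, whereas Thbs1, Plec and Sptbn1 stood at the 21.7th, 28.9th and 39.1th. The genes of the lowest band stood little above their running median, with an SD of 1.90 against 1.71 for Rab3gap1 and 2.55 against 2.37 for Hsph1, an Hsp110 chaperone.

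**Figure D3:**
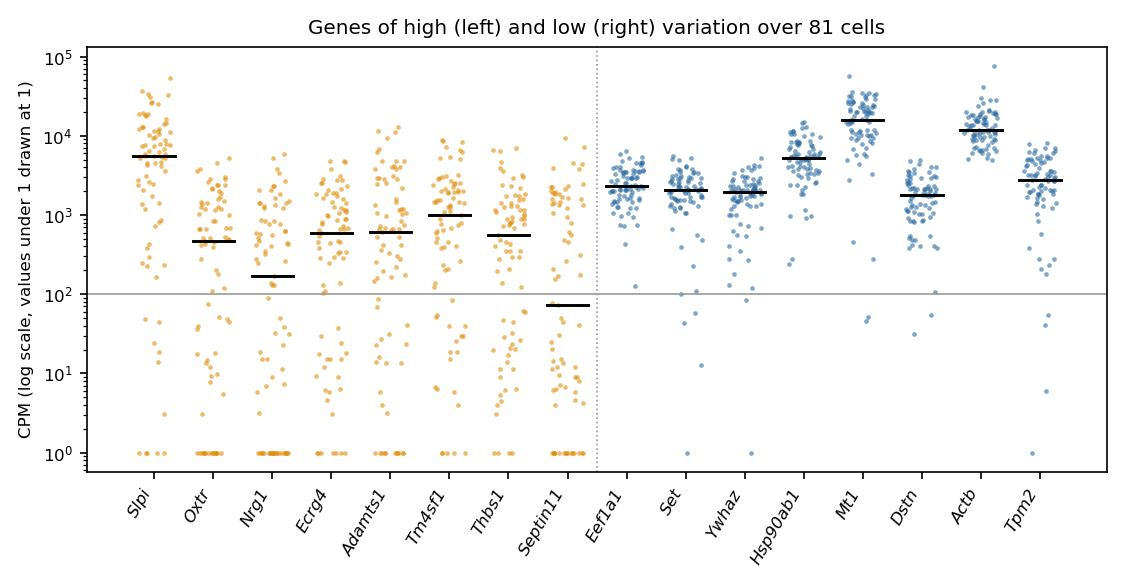
CPM in each of the 81 cells (vertical axis, log scale, values under 1 drawn at 1) for 8 genes of high SD (orange) and 8 uniform genes (blue); bars are medians and the horizontal line marks 100 CPM. Oxtr, Nrg1 and Septin11 have cells on both sides of the line, while Eef1a1 and Actb have every cell above it.

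The gene lists differed in how they stood to the running median. All 11 core basal genes lay below it (median ratio of CV to running median 0.795), as did 16 of 18 measured contractile genes (0.831), with Actg2, the enteric smooth muscle actin, and Oxtr above. Of 11 heat shock and chaperone genes, 10 lay below (0.642), all but Cryab, a small heat shock protein of muscle. Of 10 widely expressed genes, 9 lay below (0.561). Over all genes, 1780 of 3604 lay above the running median. Over 1000 CPM, however, where the running median stayed at 1.09, 65 of 97 genes of any kind lay below it, and 8 of the core basal and 10 of the contractile genes were in this band. Up to 1000 CPM, 3 of 3 core basal, 6 of 8 contractile, 9 of 10 heat shock and 5 of 6 widely expressed genes lay below, against 1742 of 3507 genes of any kind. Extracellular matrix genes were split, with 6 above and 5 below, and Fbn1, the fibrillin, had the highest ratio (1.67). Among transcription factors of the basal lineage, Id2 (2.03) and Id3 (1.99), inhibitors of helix-loop-helix factors, lay above and Runx1 (0.818) and Nfib (0.868) below. Runx1 was detected in 68 cells and Nfib in 73, while Id3 was detected in 35 and reached 11604.5 CPM in its highest cell.

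Gene to gene correlation was computed as Spearman's rho of CPM over the 81 cells, for the 1777 genes with at least 50 CPM on average and reads in at least 50% of cells. The points share the sequencing depth and the library total of their cells, so no p-value is given. Over 1577976 pairs the median rho was 0.0807, and 90% of pairs lay between -0.116 and 0.272. After log reads, genes detected and mitochondrial share were taken out, the median fell to 0.00757.

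The strongest positive pairs mostly joined genes with sequences close to them. All 15 pairs named by the rule contained a numbered gene model or pseudogene, from Gm9349 with Atp6v1f, a subunit of the proton pump (rho 0.936), to Myl6 with Gm10080 (0.786). Where both transcripts were found and aligned, in 10 of 15 pairs, they were from 93.9% to 99.2% identical. For Mif with C230062I16Rik (0.879), no alignment was found on the same strand, and the opposite strand was not searched. For the other 4 pairs a transcript was missing. The aligned pairs are uncertain as a measure of co-expression, since reads of 1 gene could be assigned to the other. For the pairs not aligned, shared sequence was not excluded.

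Between named protein-coding genes, a restriction also added after the data were seen, contractile genes led. The highest pair was Myl6 with Tagln (rho 0.684, Pearson's r 0.726 on the log2 scale), followed by Tpm2 with Tagln (0.640). Without the 2 cells farthest from the median of the first gene, r was 0.727 and 0.577. Myl6 with Acta2 had a rho of 0.579. Outside the contractile genes, Lgals1, a galectin, rose and fell with S100a6 (0.614) and with Anxa2 (0.579), both calcium-dependent membrane or signalling proteins. Fos paired with Egr1, another immediate early factor (0.610). Clca3a1 and Clca3a2 (0.603), chloride channel regulators of 1 gene family, may share reads. The other pairs joined genes without a shared role in the lists, such as Lmod1, a leiomodin of smooth muscle, with the YAP partner Tead1 (0.584), Ccnd2 with Tspan3 (0.583), and Crip2 with Tmem176b (0.571). In the 58 unmarked cells, Myl6 with Tagln had a rho of 0.538, Tpm2 with Tagln 0.440 and Fos with Egr1 0.491. The values there were 0.272 for Lgals1 with S100a6, 0.145 for Lgals1 with Anxa2, 0.147 for Lmod1 with Tead1, 0.128 for Ccnd2 with Tspan3, 0.0674 for Gatad1 with Atp2a2 and -0.00223 for Crip2 with Tmem176b. Nrip1 with Rbm8a and Gatad1 with Atp2a2 (0.590 and 0.588) rested on 44 and 50 cells in which both genes had reads.

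The partners of the markers followed the same lines. Acta2 had its highest rho with Tagln (0.601), Gm10080 (0.586), Myl6 (0.579), Cnn1, the smooth muscle calponin (0.561), and Myl9 (0.548). In the 76 cells with at least 6 core basal genes these values were 0.543, 0.553, 0.534, 0.480 and 0.603. These cells were chosen by genes that include all the markers, which narrows the range of the markers there. Myh11 went with Flna, a filamin that crosslinks actin (0.508), Tpm2 (0.497), Plpp3 (0.455), Tead1 (0.444) and Rbpms (0.435). In the 58 unmarked cells the values of Myh11 were 0.614, 0.320, 0.295, 0.191 and 0.125. Those of Acta2 ran from 0.414 to 0.550 there.

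The ties of the keratins depended on the measure. By Pearson's r on the log2 scale, Krt14 had 0.698 with Krt17 and 0.604 with Acta2, and Krt17 had 0.668 with Sfn, above the r of 0.591 of Acta2 with Tagln. These r include the cells of few core basal genes. Of these, cells 7, 19, 100 and 104 had from 7.40 to 271 CPM per kb of Krt14 and from 0 to 19.6 of Krt17. Cell 95 had 2073 and 1444, near the medians of 2595 and 2449. The part of the low cells in r was not tested, and r was not computed without them. By Spearman's rho, Krt14 had a rho of 0.414 with Krt17 and of 0.371 with Acta2, and in the 76 cells 0.313 and 0.270. Krt5 had 0.433 with Perp, a desmosome-associated protein, and 0.427 with Krt17, and in the 76 cells 0.338 and 0.334. In the 58 unmarked cells Krt5 had 0.0955 with Perp and 0.262 with Krt17. Krt14 had 0.484 with Krt17 and 0.324 with Acta2 there. With Krt14, its filament partner, Krt5 had a rho of 0.0849, near the median of 0.0807 over all pairs. Krt17 went with Tmem176b (0.497), Cnn1 (0.479), Sfn, the epithelial 14-3-3 protein (0.464), and Tagln (0.450). Its values in the unmarked cells were 0.140, 0.461, 0.496 and 0.456. The highest partners of Trp63 were Idh3g (0.465) and Kcmf1 (0.442), with reads of both genes in 41 and 34 cells, so that these values rest on sparse counts. For these pairs the unmarked cells gave -0.0717 and 0.178.

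**Figure D4:**
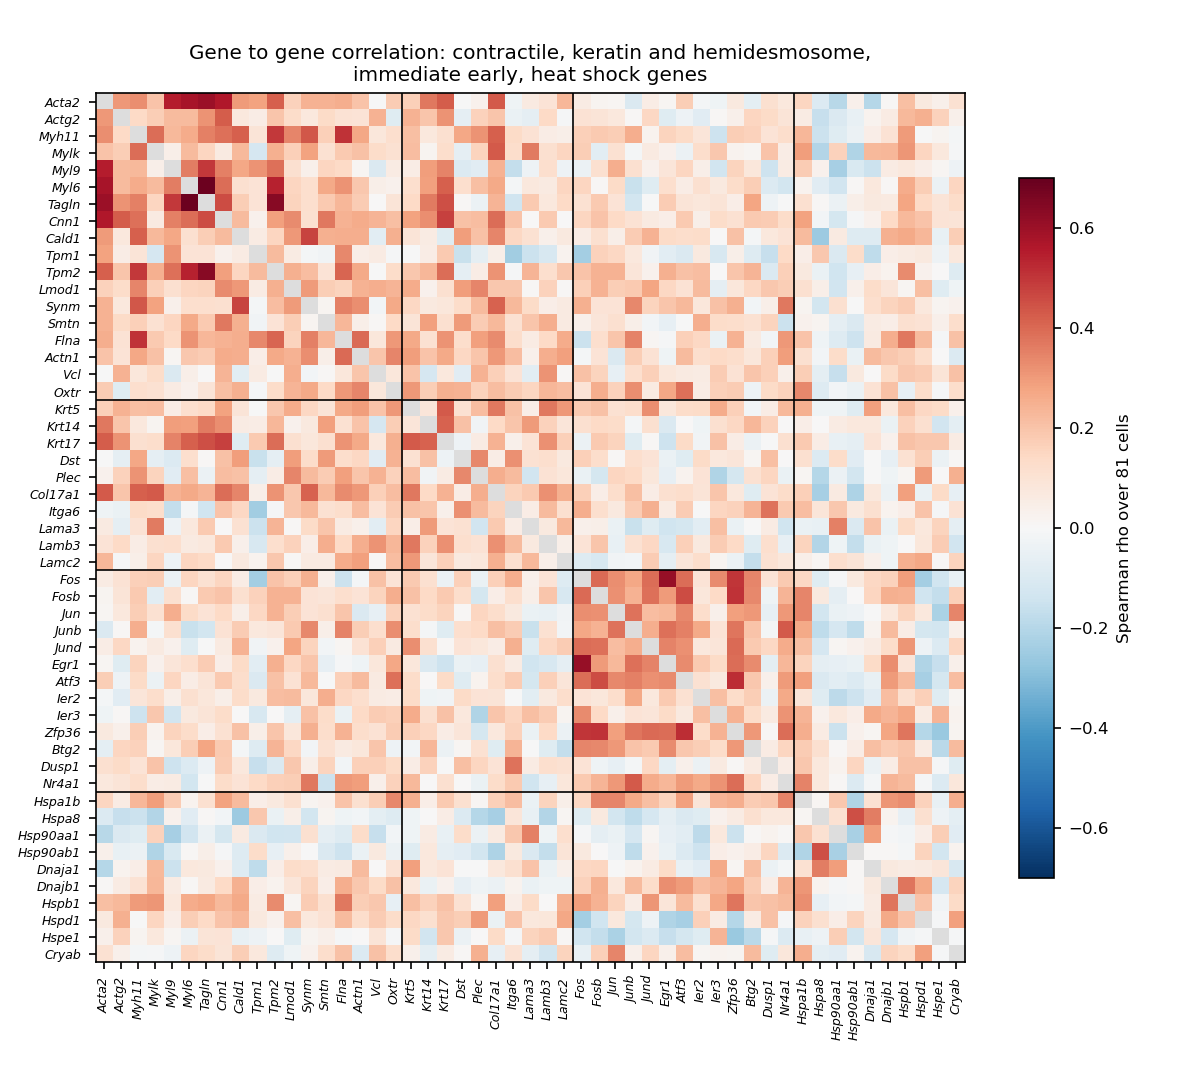
Spearman's rho over the 81 cells (colour) between genes of 4 lists, in blocks from the top for smooth muscle contractile, keratin and hemidesmosome, immediate early, and heat shock genes. Acta2, Myl9, Myl6, Tagln, Cnn1 and Tpm2 form a red block, as do Fos, Fosb, Egr1, Atf3 and Zfp36, while the heat shock block is pale.

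Within lists, the median rho was 0.248 among 13 immediate early genes, with 73 of 78 pairs above 0, and 0.213 among 18 contractile genes, with 143 of 153 pairs above 0. For all pairs it was 0.0807, so most pairs of any genes also lay above 0. The share of all pairs above 0 was not computed, so the counts of pairs above 0 alone do not set these lists apart. Zfp36, which destabilises mRNAs of early response genes, had a rho of 0.519 with Atf3, 0.508 with Fosb and 0.498 with Fos. Dusp1, a MAP kinase phosphatase, and Ier2 were less tied to them, with 0.0981 and 0.0966 with Fos and -0.0690 and 0.184 with Egr1. The core basal list, which shares genes with the contractile list, had 0.205, and the keratin and hemidesmosome list 0.163. In the 76 cells with at least 6 core basal genes, the core basal value was 0.131 and the keratin value 0.0764, against 0.176 for the contractile list and 0.257 for the immediate early list. The choice of these cells by core basal genes narrows the range of those genes. The lists that hold them are thus not on equal terms with the immediate early list. After the 3 cell measures were taken out, the contractile list had 0.196 and the immediate early list 0.260. Heat shock genes had 0.0573, with Hspa8 and Hsp90ab1 at 0.449 and Hsp90aa1 and Hsp90ab1 at -0.225. Glycolysis genes had 0.187 from 5 genes, and endoplasmic reticulum folding genes 0.180 from 8.

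Negative correlations were weaker. The lowest rho was -0.499, between Rbm26, an RNA-binding protein, and Egr1. Malat1 was opposed to Acta2 (-0.472) and to Actb (-0.470), which are among the most abundant genes and share the library total with it. Rbm25, a splicing factor, and Smc1a, a cohesin subunit, were opposed to Myl9 (-0.493 and -0.466), and Skil, a repressor of SMAD signalling, to Acta2 (-0.447). The rho of Malat1 with Acta2 lay between -0.518 and -0.362 over the alternatives. In the unmarked cells it was -0.171, Rbm25 with Myl9 had -0.0514 there, and Acta2 with Skil had 0.0460. Over the 10 lowest pairs, the rho in the unmarked cells was above 0 for 3, the others being Eif5 with Cox6a1 (0.125) and Skp1 with Ddx42 (0.0977).

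**Figure D5:**
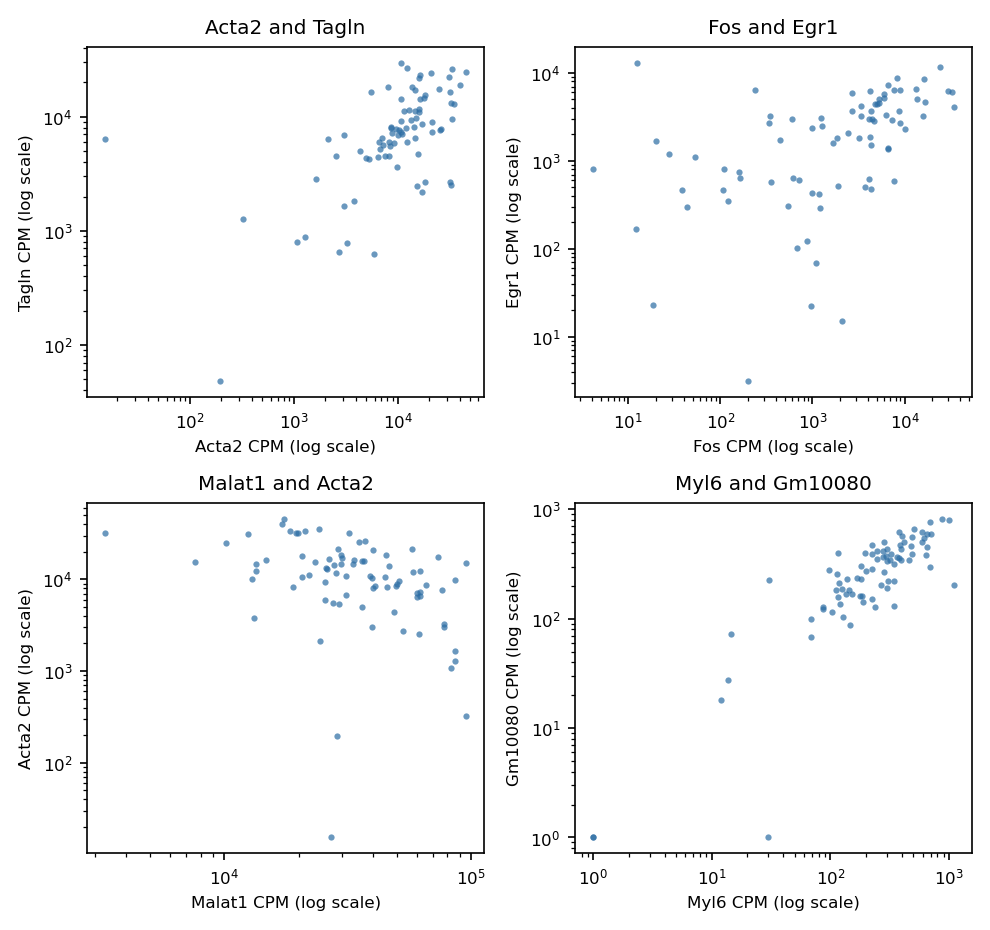
CPM of pairs of genes in each of the 81 cells (both axes on log scales, values under 1 drawn at 1). Tagln rises with Acta2 and Egr1 with Fos, Acta2 falls with Malat1, and Gm10080 follows Myl6, the gene it matches in sequence.

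Finally, the main axes of variation over the same 1777 genes were computed. The first principal component held 8.52% of the variance and followed the number of detected genes (rho 0.937, and 0.962 with genes detected after thinning), so it was a measure of how many genes a cell showed. Dusp7, a MAP kinase phosphatase, Smad7 and Tagln2 were at its high end. The second held 3.09% and set Malat1 (r 0.63 with the axis), Nufip2, Zfc3h1 and the splicing factor Tra2b against Acta2 (-0.66), Myl6 (-0.57), Tagln (-0.57) and Krt17 (-0.55). All 18 contractile genes had a negative r with it, while its rho with genes detected was 0.101. The third held 2.64%, with Myh11 (0.61), Postn (0.59), Scn7a, a sodium channel (0.56), Plpp3 (0.55), Egr1 (0.52), Fosb (0.51) and Fos (0.49) at its high end. All 13 immediate early genes and all 18 contractile genes had a positive r with the third axis. So had all 11 core basal genes and all 10 keratin and hemidesmosome genes. The 18 contractile genes also all had a positive r with the first axis. The share of the 1777 genes with r of either sign was not computed for any axis, so these counts alone do not set the lists apart.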

How the data were processed

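Read pairs of single cells were mapped by the authors to mm10 with Subread (version 1.5.0 in the submitters' processing notes) and assigned to Entrez genes by featureCounts, using the RefSeq annotation supplied with Rsubread. The deposited values are counts of read pairs per gene and cell, without normalization and without molecular identifiers, so copies made by PCR are counted. Whether counting used the strand is not given in the sources used here. No identical cells were found among the marked cells (0 pairs).

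Symbols came from the RefSeq annotation of GRCm38 and were found for 25275 of 27179 gene IDs. IDs without a symbol held 1.09% of the reads of the retained marked cells. With 15 mitochondrial and 124 ribosomal protein genes also left out, 25136 genes were used. CPM was computed over these genes, and for variation each cell was thinned without replacement to 50000 reads. The named genes were the 25 of highest mean CPM per kb, the 8 of lowest and of highest residual of log10 squared CV in each of 3 bands of mean (for the variable ones, with at most 25% of thinned reads in 1 cell), the 15 highest and 10 lowest pairs by rho (each gene in at most 2 pairs, over 10 kb apart) and the 5 best partners of each marker. The cells, gene lists and rules were chosen with earlier results of these data known. The alternatives for protein-coding genes, for the naming by SD of log2(CPM + 10), for the principal components and for abundance without cells of few core basal genes were added after seeing the data.

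Copies were sought by BLAST 2.17.0 against 58797 GENCODE protein-coding transcripts, on the same strand only. Other tools were Python 3.11.15, NumPy 2.4.6, SciPy 1.17.1, pandas 2.3.3, matplotlib 3.10.9, R 4.3.3, edgeR 4.0.16 for TMM factors and scran 1.30.0 for size factors. The scripts were tested on simulated data. Shares of cells carry exact Clopper-Pearson 95% intervals, and the limit for 0 is that of 3 counts. Intervals and limits cover counting error only. Results for some genes are not reported here.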

Additional observations from a re-analysis of the deposited data

Results flagged for a closer look

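The minimum of reads and genes left out 31 of the 112 marked cells, and their counts enter no result of the report. Of these, 25 (80.6%, exact 95% interval 62.5 to 92.5%) had at least 6 of the 11 core basal genes at 100 CPM. Core basal genes took from 0.0590% to 8.56% of their reads, with a median of 3.52%. These cells had from 259 to 47943 assigned reads, with a median of 9892, so 100 CPM is less than 1 read in the median cell.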

How the results depend on the processing

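No paired analysis was possible because the results come from no test and the labels name no animals. The share of cells with at least 6 core basal genes was 98.8% at 10 CPM and 87.7% at 500 CPM. Of the 24 variable genes, 5 were named again with TMM factors and 10 with scran size factors, both without thinning, which alone gave 18, 3 by the SD of log2(CPM + 10), 8 without the highest cell of each gene and 11 at 100000 reads and 1500 genes. Of the 24 uniform genes, 10 were named again by the SD of log2(CPM + 10) and 10 among protein-coding genes alone. Among protein-coding genes, 0 of the 15 strongest pairs remained, by construction, since each contained a gene model or pseudogene. The median rho over all pairs was 0.00757 after log reads, genes detected and mitochondrial share were taken out, and that of the basal transcription factor list turned from 0.0810 to -0.0515. Of 497 values of 71 named pairs, marker partners included, under 7 alternatives, 493 lay within 1.5 times the reported value and 0 changed sign. The 4 exceptions were Pearson's r of Myl9 with Smc1a (-0.308), Krt14 with Krt17 (0.698), Krt14 with Acta2 (0.604) and Krt17 with Lars2 (0.212). The 15 strongest protein-coding pairs were named again in 7 to 12 cases. The cause of these changes was not tested. Genes under 200 CPM had reads in a median of 27 thinned cells, which limits what their variation shows.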
